A study of Danio rerio x Danio aesculapii and Danio rerio x Danio albolineatus and Danio rerio x Danio kyathit with 48 samples.

Results

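The heat shock and DnaJ chaperone genes were taken as every gene whose symbol begins with hsp or dnaj, leaving out hspg2, which encodes perlecan, a matrix protein. The rule found 81 genes, 31 hsp and 50 dnaj, among the 19629 genes with allele-resolved values. The study crossed female D. rerio (zebrafish) to males of D. kyathit, D. aesculapii, D. nigrofasciatus or D. albolineatus, and measured RNA in the skin of the adult hybrids, so that every library holds transcripts of a maternal D. rerio allele and of a paternal allele. The fish carried a fluorescent reporter for iridophores (pnp4a:mem-mCherry), melanophores (tyrp1b:mem-mCherry) or xanthophores (aox5:mem-EGFP), which are the reflective, black and yellow-orange pigment cells. Skin was dissociated and sorted on the reporter into an enriched fraction of 1 pigment cell type, and whole skin that was not enriched served as the control. The labels do not say whether that whole skin was also dissociated. Each of the 4 hybrids gave 3 libraries of each of 4 kinds (iridophore-enriched, melanophore-enriched, xanthophore-enriched and unenriched skin), 48 libraries in 16 groups. No group received heat or another stress treatment. The enrichment rests on the promoter of 1 gene for each cell type, and the labels do not say whether the 3 libraries of a group came from separate fish, so p-values measure the spread between these libraries, which may be in part technical.

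Heat shock proteins are molecular chaperones, which bind unfolded or partly folded proteins and help them fold, assemble or be degraded. HSP70 proteins bind and release their clients in a cycle driven by ATP, DnaJ (HSP40) proteins bring clients to HSP70 and start that cycle, and HSP110 proteins reset HSP70 by exchanging its nucleotide. HSP90 proteins mature kinases, receptors and other clients, small heat shock proteins hold unfolded proteins without using ATP, and the chaperonin HSP60 with its lid HSP10 folds proteins in mitochondria. Some members are made at all times, and others are switched on by heat shock factor 1 when proteins are damaged, among them the zebrafish hsp70l gene, whose promoter is widely used to drive transgenes by heat. Dissociating a tissue into cells is known to raise heat-inducible and immediate early genes in many cell types.

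The values were the authors' normalised allele counts. A total level is the sum of both alleles, in normalised units, and the alleles are compared as the log2 ratio of the paternal over the D. rerio value. Levels of different genes are not compared, because no transcript lengths were used. The libraries were of limited depth: their normalised sums lay between 5173935 and 12500648, and the spread between the alleles across replicates corresponded to between 36368 and 982371 independently sampled molecules a library. The median was 507319.5 molecules in unenriched skin, 196622.5 in iridophore-enriched, 94556 in melanophore-enriched and 92749 in xanthophore-enriched libraries. The labelled cell types were checked against their markers. All 10 of 10 iridophore markers were higher in iridophore-enriched libraries than in unenriched skin (limma, median log2 difference 5.11), all 10 of 10 melanophore markers in melanophore-enriched libraries (4.22) and all 8 of 8 xanthophore markers that could be tested in xanthophore-enriched libraries (2.85). The fractions also showed higher levels of other pigment cell markers. Melanophore-enriched libraries had 7 of 7 iridophore markers (2.27) and 7 of 8 xanthophore markers (1.37) higher than skin. Iridophore-enriched libraries had 5 of 7 melanophore markers higher (1.94), and 3 of 8 xanthophore markers higher and 3 lower. Xanthophore-enriched libraries had 4 of 6 melanophore markers (1.94) and 0 of 5 iridophore markers higher. Sorted kinds were also compared directly. In melanophore- against xanthophore-enriched libraries, 5 of 10 melanophore markers were higher and only 2 of 9 xanthophore markers lower. In iridophore- against melanophore-enriched libraries, 9 of 9 iridophore markers were higher, and of 10 melanophore markers 8 were lower and 2 higher. Unenriched library 5 of the kyathit hybrid and unenriched library 3 of the nigrofasciatus hybrid stood apart, with tyrp1b, a melanophore gene, at 7217 and 5218 against a median of 276.5 over the 12 unenriched libraries. They were also shallow, at 74907 and 105830 molecules. Xanthophore-enriched library 5 of the aesculapii hybrid had the highest normalised sum, 12500648. The numbers of members called against unenriched skin were the same without the first 2 of these libraries, and the same again without the third, which ended 1 call between sorted kinds, given with hsp90ab1. Without the first 2, allele calls numbered 33 in the kyathit and 31 in the nigrofasciatus hybrid, against 26 and 28 with them. Some sorted libraries also held markers of another pigment cell. In xanthophore-enriched libraries tyrp1b stood at 7584 in library 3 of the albolineatus and 4924 in library 5 of the aesculapii hybrid, against a median of 521. That albolineatus library also had the lowest aox5 of its kind, 932, and was not left out by itself.

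Of the 81 members, 40 were above 0 in all 48 libraries, and 8 were above 0 in fewer than 24: dnajb13, dnajc5b, dnajc11b, hspa4l, hspb2, hspb7, hspb9 and hspb11. Members together made up a median of 0.956% of the normalised sum in unenriched skin, 0.871% in iridophore-enriched, 0.939% in melanophore-enriched and 0.927% in xanthophore-enriched libraries. The library ranges overlapped widely, at 0.791 to 1.5% in skin against 0.600 to 1.09%, 0.790 to 1.11% and 0.634 to 1.31% in the sorted kinds. Only members with a mean of at least 5 molecules over the kinds compared were tested, which left 34 members in at least 1 comparison of total level. With the allele comparisons, 60 members were tested there, and 21 were too low for either.

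The heat-inducible HSP70 genes were lower in all 3 sorted kinds than in unenriched skin. All 4 genes of this list that the data hold, hsp70l, hsp70.1, hsp70.2 and hsp70.3, fell in each of the 3 comparisons, by 1.04 to 1.54 on the log2 scale. These copies are near-identical in sequence, and reads may have been split between them, so the value of each single copy is uncertain. They are also the only members that passed the test in all 3 comparisons with skin, among 14 members that passed it in at least 1. Over all genes, 26.6, 16.4 and 5.49% fell in the iridophore, melanophore and xanthophore comparisons. The share that passed in all 3 was not computed, so whether the overlap sets these copies apart from other genes is not known. The 3 comparisons use the same unenriched libraries, so their results are not independent. In bulk libraries such as these, fewer cells of a type and less RNA per cell cannot be told apart, and neither can dissociation, sorting and cell type in a comparison of a sorted fraction with whole skin.

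Across the 12 unenriched libraries, hsp70l ranged from 3076 to 21385 with a median of 7301. It ranged from 803 to 5232 (median 3105) in iridophore-enriched, from 1635 to 8124 (median 2783) in melanophore-enriched and from 298 to 17071 (median 3514) in xanthophore-enriched libraries. The ranges overlapped. Within a hybrid, 0 of 12 iridophore-enriched, 0 of 12 melanophore-enriched and 1 of 12 xanthophore-enriched libraries lay above the mean of that hybrid's unenriched skin. Xanthophore-enriched libraries overlapped skin within the aesculapii hybrid (7978, 10848 and 17071), the kyathit hybrid (5310, 1969 and 298) and the nigrofasciatus hybrid (3144, 3884 and 1020). Unenriched skin gave 10907, 21385 and 12252 in the aesculapii hybrid (replicates 3, 4 and 5), 6522, 7108 and 8584 in the albolineatus hybrid, 7494, 6516 and 4777 in the kyathit hybrid and 9039, 6025 and 3076 in the nigrofasciatus hybrid. The 3 aesculapii libraries lay above those of the other hybrids. The mean of the 4 within-hybrid differences was -1.52 ± 0.29 (log2, SE; adjusted p = 3.33e-05, limma) for iridophore-enriched libraries, which is 0.349 times the skin level. It was -1.45 ± 0.29 (adjusted p = 0.000156) for melanophore-enriched and -1.42 ± 0.34 (adjusted p = 0.00369) for xanthophore-enriched libraries.

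**Figure D1:**
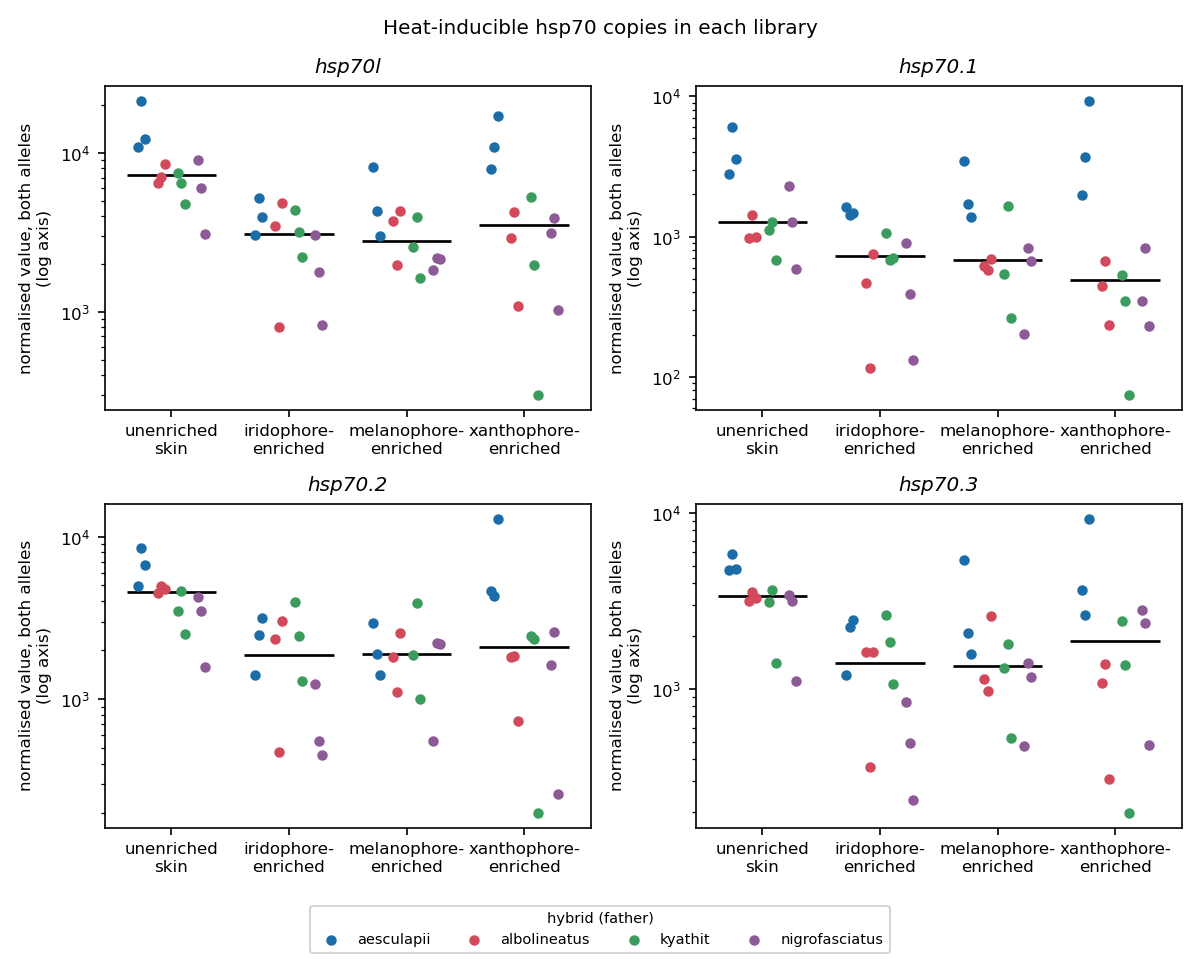
Normalised values (both alleles summed, log axis) of the 4 heat-inducible hsp70 copies in each of the 48 libraries, by kind of library; points are libraries coloured by hybrid and black lines are medians over 12 libraries. The median of hsp70l was 7301 in unenriched skin and 3105, 2783 and 3514 in the sorted kinds, and the aesculapii libraries lay highest in skin.

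The other copies also had lower medians in every sorted kind than in skin, though the order of the sorted kinds differed between copies. The median of hsp70.2 was 4547.5 in unenriched skin (1577 to 8478) and 1873, 1892 and 2083.5 in iridophore-, melanophore- and xanthophore-enriched libraries. The median of hsp70.3 was 3368 in skin (1107 to 5889) and 1408.5, 1362 and 1883 in the sorted kinds, and that of hsp70.1 was 1273 (589 to 6086) against 723.5, 681 and 488.5. In each copy at most 2 of 12 libraries of a sorted kind lay above their own hybrid's skin mean. The log2 differences were -1.54 ± 0.31, -1.36 ± 0.31 and -1.30 ± 0.37 for hsp70.3, -1.46 ± 0.33, -1.35 ± 0.33 and -1.40 ± 0.40 for hsp70.2, and -1.30 ± 0.26, -1.04 ± 0.28 and -1.34 ± 0.35 for hsp70.1, in the order iridophore, melanophore and xanthophore. Every one of these 9 values passed the threshold, with limma adjusted p from 5.93e-05 to 0.0137. Leaving out 1 replicate number from all groups changed some of these calls: without replicate 3 or without replicate 4 none of the 4 copies passed in xanthophore-enriched libraries (highest adjusted p 0.415), and only hsp70l passed in melanophore-enriched libraries (highest 0.149 for the other copies). Without replicate 5, hsp70.2 did not pass in xanthophore-enriched libraries (-0.89, adjusted p = 0.0553). Without replicate 4 only hsp70l passed in iridophore-enriched libraries (highest 0.061 for the others). The calls of hsp70l in iridophore- and melanophore-enriched libraries held under every alternative that was run.

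The sum of the 4 copies gave the same picture per library. It had a median of 16603.5 in unenriched skin (6349 to 41838) and of 7565, 6972.5 and 8031.5 in iridophore-, melanophore- and xanthophore-enriched libraries, or 0.259% of the normalised sum in skin against 0.115, 0.120 and 0.129%. The 3 sorted kinds were not separable from each other: the 95% interval of the log2 difference in hsp70l ran from -0.70 to 0.55 between iridophore- and melanophore-enriched libraries, from -0.82 to 0.62 between iridophore- and xanthophore-enriched and from -0.75 to 0.69 between melanophore- and xanthophore-enriched. Hybrids differed in level, which was not tested. The 3 unenriched libraries of the aesculapii hybrid, at 23464, 27242 and 41838, all lay above the 9 of the other hybrids, at 6349 to 19039. Its xanthophore-enriched libraries, at 18253, 21546 and 48586, also lay above the 9 others, at 768 to 10714, whereas its iridophore- and melanophore-enriched libraries overlapped those of the other hybrids. In single hybrids the difference of hsp70l from skin was -1.73, -1.5, -1.05 and -1.79 in iridophore-enriched libraries of the aesculapii, albolineatus, kyathit and nigrofasciatus hybrids. It was -1.70, -1.19, -1.49 and -1.41 in melanophore-enriched and -0.41, -1.47, -2.56 and -1.22 in xanthophore-enriched libraries. No member passed the test for a difference among hybrids in enrichment (limma F test, 0 of 34, 24 and 23 tested for the 3 sorted kinds). At an unadjusted p under 0.05, 2, 1 and 0 members did, and 2.36, 0 and 0% of all genes passed after adjustment. In simulated data this test recovered 0 to 3.19% of genes changed 2-fold and 34 to 44.3% of those changed 4-fold in the kyathit hybrid. The lack of calls therefore does not show that enrichment was equal among hybrids.

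Genes of other cell types and of the early stress response moved in the same comparisons. Among 24 immediate early genes, transcription factors and regulators that cells switch on within minutes of a stimulus, 13 of 22 tested fell in iridophore-enriched libraries, 11 of 22 in melanophore-enriched and 3 of 22 in xanthophore-enriched, and 0 rose in any of them. Their median log2 differences were -0.61, -0.48 and -0.27, against -0.07, -0.04 and -0.05 over all genes tested. Of all genes tested 26.6, 16.4 and 5.49% fell in these comparisons. The nuclear receptor gene nr4a1 fell by 3.83 in iridophore-enriched and by 1.47 in melanophore-enriched libraries, and egr3 fell by 2.33 and 1.21. The summed level of the list was 332203 to 501128 in unenriched skin, and 134977 to 540079, 192859 to 401447 and 202523 to 836976 in iridophore-, melanophore- and xanthophore-enriched libraries.

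Keratinocyte markers fell in iridophore-enriched libraries (9 of 12 tested, 1 rose) and melanophore-enriched libraries (9 of 11, 1 rose) but 0 of 11 fell and 1 rose in xanthophore-enriched libraries. Their summed level had a median of 207874 in skin (124780 to 310477), 102942 (30496 to 231945), 89490 (35900 to 171155) and 178808 (107025 to 506228) in the 3 sorted kinds. Dermal fibroblast and scale markers fell in 9 of 9, 5 of 8 and 5 of 8 tested, with summed levels of 102783 to 1308760 in skin and 3312 to 103793, 34337 to 255234 and 49211 to 326760 in the sorted kinds. Leukocyte markers fell in 9 of 10 in iridophore-enriched libraries (6318 to 20892 against 22556 to 41778 in skin), while 3 of 8 rose and 1 fell in melanophore-enriched libraries (41875 to 76727), and 1 rose and 1 fell of 8 in xanthophore-enriched libraries (12360 to 91595). Erythrocyte markers fell in 6 of 6, 3 of 3 and 3 of 3, with summed levels of 3583 to 77081 in skin and 35 to 4605, 103 to 7408 and 204 to 12874 in the sorted kinds. Of these markers, gata1a stood at 0 in 10, 7 and 9 of 12 libraries of the sorted kinds and in 0 of 12 of skin, and sp7 in 9, 7 and 8 and in 3 of skin. Muscle markers fell in 2 of 2 in iridophore-enriched libraries (60 to 586 against 318 to 6713 in skin) and endothelial and mural markers in 2 of 3 (103 to 7729 against 1056 to 5230). Neither list gave a call in melanophore- or xanthophore-enriched libraries, where 2 and 2 muscle and only 1 and 0 endothelial and mural markers could be tested. Of all genes tested, 24.1, 18.5 and 8.61% rose and 26.6, 16.4 and 5.49% fell in the 3 comparisons. The part of these cell types and of the immediate early genes in the hsp70 result was not tested.

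In the comparison of iridophore-enriched libraries with unenriched skin as a whole, 6 members rose and 6 fell of 34 tested. Of those that rose, hspb6, dnajc12 and dnajc19 passed the filter on low values only through the iridophore-enriched libraries, where they were high. Among all genes tested 24.1% rose and 26.6% fell, and the share of members did not exceed that background in either direction. The median log2 difference of the members was -0.21, against -0.07 over all genes. In melanophore-enriched libraries 2 rose and 4 fell of 24 members (background 18.5% and 16.4%; medians -0.14 and -0.04). In xanthophore-enriched libraries 1 rose and 4 fell of 23 members (background 8.61% and 5.49%; medians -0.07 and -0.05), and all 4 that fell were hsp70 copies. Differences of members that did not pass lay between -0.62 and 0.47, between -0.74 and 0.42 and between -0.78 and 0.81 in the 3 comparisons. Scaling the libraries by recomputed size factors of the summed values moved the median of all genes by 0.111 and 0.143 in the melanophore and xanthophore comparisons. The share of higher calls over all genes went from 53.1 to 65.9% and from 61.1 to 77.2%, and the members split into 4 higher and 4 lower and into 3 higher and 4 lower.

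**Figure D2:**
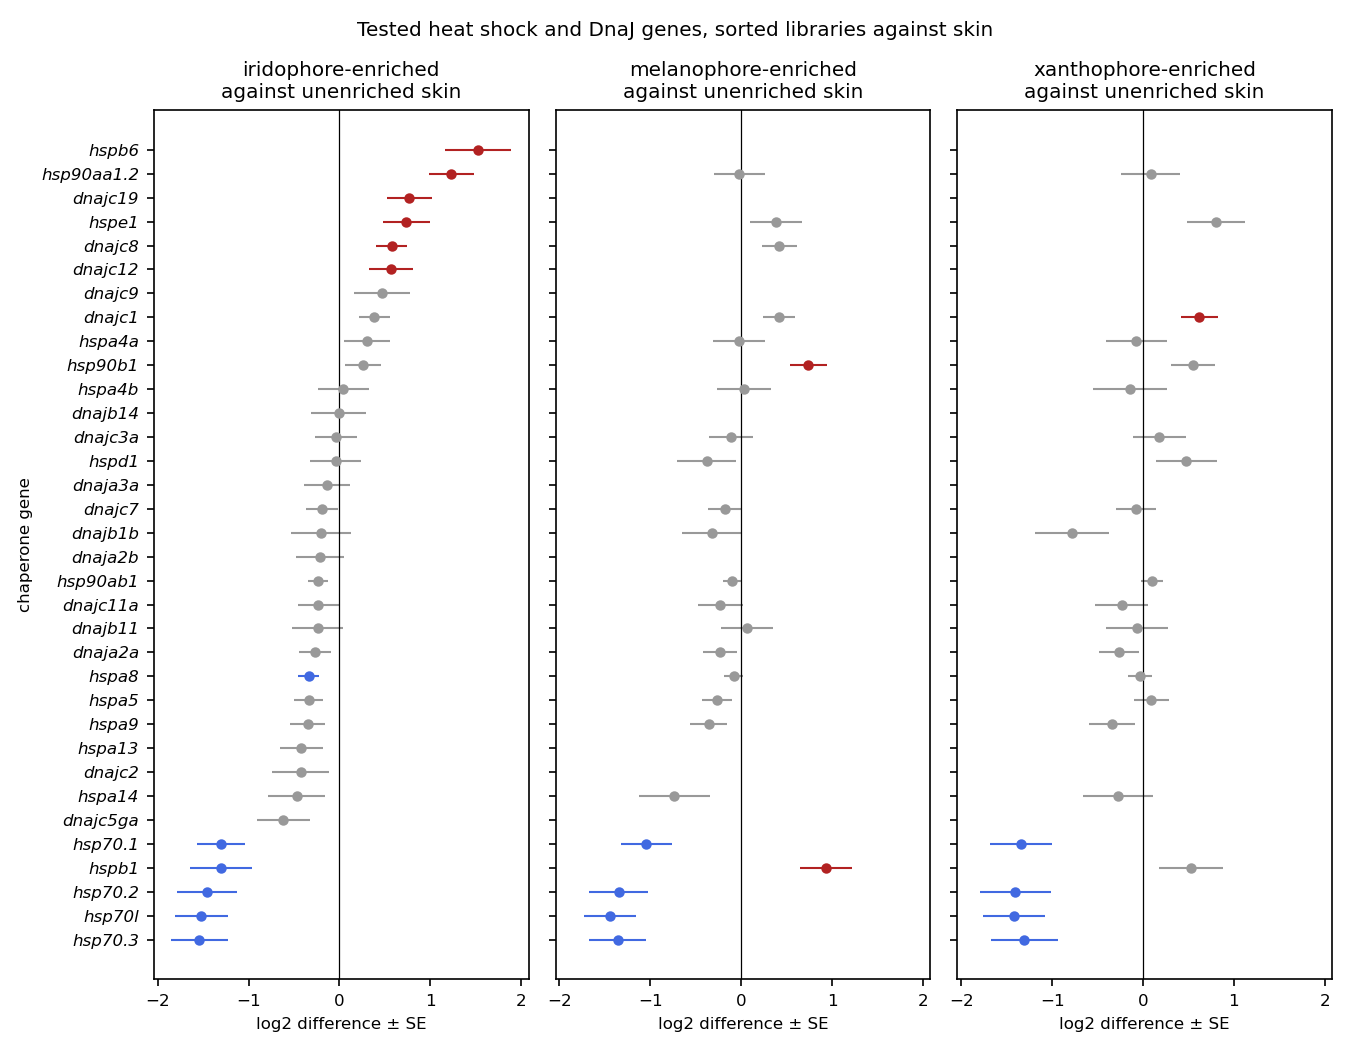
Log2 difference from unenriched skin (mean of the 4 within-hybrid differences, bars are SE) of each tested member, 1 panel for each sorted kind; red marks members called higher, blue members called lower and grey members not called by limma at an adjusted p of 0.05. The 4 hsp70 copies lie at -1.04 or below in every panel, hspb1 at -1.30 in the iridophore and 0.93 in the melanophore panel.

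Among the constitutive HSP70 genes, hspa8, the general housekeeping HSP70 of the cytosol, fell slightly in iridophore-enriched libraries. Its median was 12377.5 in unenriched skin (9954 to 16115) and 10395 in iridophore-enriched libraries (6207 to 13169), where 2 of 12 libraries lay above their hybrid's skin mean. The difference was -0.34 ± 0.12 (adjusted p = 0.0129, limma), and with recomputed size factors it was -0.25 and did not pass (adjusted p = 0.0881). Nor did it pass without replicate 3 or 4 (highest adjusted p 0.247). In melanophore- and xanthophore-enriched libraries hspa8 had medians of 12121.5 and 12934.5 and differences of -0.08 and -0.04, which did not pass. The ribosome-associated hspa14 had a median of 352.5 in skin and 315.5, 235.5 and 287.5 in the sorted kinds, with differences of -0.47, -0.74 and -0.28 that did not pass. With the replicate number as a block, the value in melanophore-enriched libraries did (adjusted p = 0.0375). The HSP110 genes hspa4a and hspa4b did not pass in any of the 3 comparisons, at 0.30, -0.02 and -0.07 for hspa4a and 0.04, 0.03 and -0.14 for hspa4b. The other HSP110 genes were too low to test: hsph1 had medians of 23.5, 18.5, 12 and 0 in skin and the 3 sorted kinds, and hspa4l had medians of 0 or 1.

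The cytosolic HSP90 genes differed from each other in where they were high. The stress-regulated gene hsp90aa1.2 was higher in iridophore-enriched libraries than in skin and than in both other sorted kinds. Its value in unenriched skin was 750, 1641 and 1127 in the aesculapii hybrid, 744, 670 and 761 in the albolineatus, 477, 1035 and 966 in the kyathit and 2119, 1193 and 985 in the nigrofasciatus hybrid. In iridophore-enriched libraries it was 2558, 3339 and 2060, 1932, 1931 and 5040, 1467, 1709 and 2883, and 4391, 1819 and 1339 in the same order. The groups did not overlap in the aesculapii, albolineatus and kyathit hybrids and did in the nigrofasciatus hybrid, and 11 of 12 libraries lay above their hybrid's skin mean. The difference from skin was 1.23 ± 0.25 (adjusted p = 5.58e-05, limma), a 2.35-fold higher level. Iridophore-enriched libraries also exceeded melanophore-enriched ones by 1.25 ± 0.28 (adjusted p = 0.000393) and xanthophore-enriched ones by 1.15 ± 0.33 (adjusted p = 0.00548), and the last of these values did not pass without replicate 3 (0.71) or 4 (highest adjusted p 0.106). Against skin, melanophore- and xanthophore-enriched libraries differed by -0.02 and 0.09, which did not pass.

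The constitutive gene hsp90ab1 gave smaller differences. Its medians were 8820 in skin and 7271, 7868 and 8687 in iridophore-, melanophore- and xanthophore-enriched libraries, with differences of -0.23 (adjusted p = 0.0643, limma), -0.10 and 0.10 that did not pass. It was lower in iridophore- than in xanthophore-enriched libraries by -0.33 ± 0.13 (adjusted p = 0.0426), and this call was lost without the aesculapii xanthophore-enriched library of highest sum (-0.26, adjusted p = 0.0966) and without any 1 replicate number. The third gene, hsp90aa1.1, known in zebrafish for its role in folding muscle myosin, was near the limit of detection with medians of 17.5, 16, 10 and 9, and was not tested. Its highest values were 208 in an unenriched and 198 in a xanthophore-enriched library, both of the kyathit hybrid.

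Of the small heat shock proteins, hspb1 alone held enough molecules for a test between sorted kinds, and 2 could be tested against skin in iridophore-enriched libraries. The gene hspb1, which encodes the HSP27 protein that holds unfolded clients and stabilises actin, fell in iridophore-enriched and rose in melanophore-enriched libraries. In unenriched skin it stood at 875, 568 and 435 in the aesculapii hybrid, 220, 157 and 311 in the albolineatus, 311, 398 and 331 in the kyathit and 243, 468 and 847 in the nigrofasciatus hybrid. Iridophore-enriched libraries gave 1114, 106 and 166, 128, 59 and 132, 13, 15 and 179, and 434, 1065 and 145, so that all 3 lay below the lowest skin library in the albolineatus and kyathit hybrids while 1 library of the aesculapii and 1 of the nigrofasciatus hybrid lay above every skin library. Melanophore-enriched libraries gave 1149, 470 and 1867, 288, 547 and 498, 763, 1459 and 1252, and 759, 631 and 809, and 11 of 12 lay above their hybrid's skin mean. The difference from skin was -1.30 ± 0.34 (adjusted p = 0.00145, limma) in iridophore-enriched and 0.93 ± 0.29 (adjusted p = 0.0106), or 1.91-fold, in melanophore-enriched libraries. The value in xanthophore-enriched libraries was 0.53 ± 0.35 and did not pass. Directly compared, iridophore-enriched libraries were lower than melanophore-enriched by 2.24 ± 0.37 on the log2 scale (adjusted p = 3.95e-06), or 0.212 times, and lower than xanthophore-enriched by 1.83 ± 0.43 (adjusted p = 0.000626). The call against skin in melanophore-enriched libraries was lost without weights and without any 1 replicate number (highest adjusted p 0.0871), and the 3 other calls of hspb1 held in every alternative.

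The gene hspb6, which encodes HSP20, showed the reverse direction in iridophore-enriched libraries. Unenriched skin gave 78, 107 and 81 in the aesculapii, 38, 253 and 132 in the albolineatus, 8, 16 and 35 in the kyathit and 6, 9 and 13 in the nigrofasciatus hybrid. Iridophore-enriched libraries gave 552, 768 and 554, 434, 269 and 326, 61, 54 and 23, and 115, 80 and 8. The groups did not overlap in the aesculapii and albolineatus hybrids and did in the other two, and the aesculapii and albolineatus hybrids held the higher values in both kinds. The difference was 1.53 ± 0.37 (adjusted p = 0.00054, limma), or 2.88-fold on the scale with 20 added. Without replicate 3 it was 1.08 and did not pass (adjusted p = 0.0617). The mean of hspb6 in skin alone lay below the level that the filter asked for. It was thus tested only because it was high in iridophore-enriched libraries. Melanophore- and xanthophore-enriched libraries had medians of 10 and 12.5 against 36.5 in skin and were too low for a test.

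**Figure D3:**
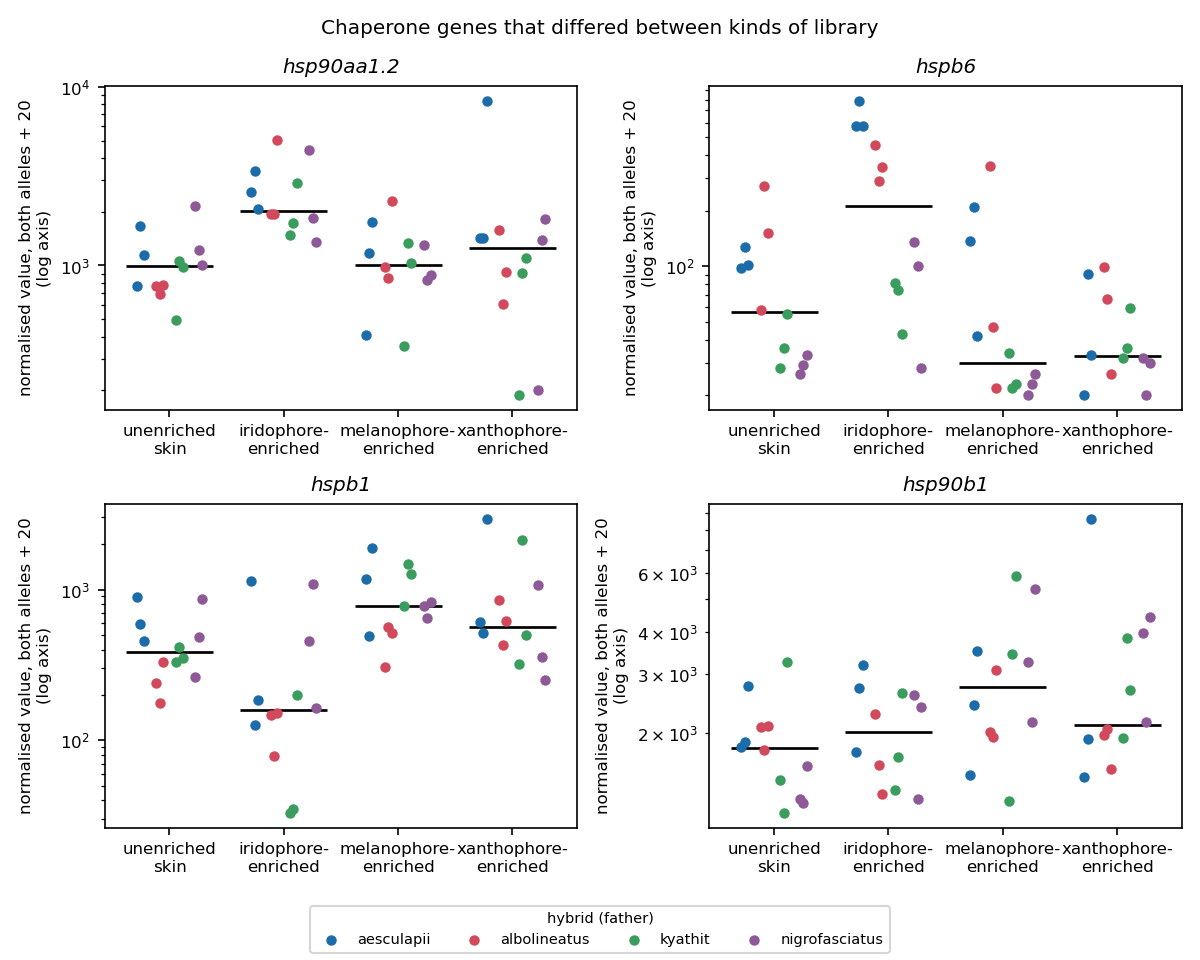
Normalised values plus 20 (both alleles summed, log axis) of hsp90aa1.2, hspb6, hspb1 and hsp90b1 in each of the 48 libraries, by kind of library; points are libraries coloured by hybrid and black lines are medians over 12 libraries. For hsp90aa1.2, 11 of 12 iridophore-enriched libraries lay above their hybrid's skin mean, and for hspb1 11 of 12 melanophore-enriched libraries did.

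The remaining small heat shock proteins were low and none was tested for total level. The gene hspb8 had medians of 33.5 in skin and 76, 43.5 and 22 in the sorted kinds. The gene hspb15 stood at 633, 1476 and 204 in the iridophore-enriched libraries of the nigrofasciatus hybrid and at 0 to 13 in those of the other hybrids, and no other kind of library exceeded 58. The highest library value was 48 for hspb2, 140 for hspb7, 195 for hspb9 and 73 for hspb11.

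Of the 11 members of the endoplasmic reticulum, 0 of 6 tested passed in iridophore-enriched, 1 of 5 in melanophore-enriched and 1 of 5 in xanthophore-enriched libraries. Over all genes, 24.1% rose and 26.6% fell in iridophore-enriched libraries. The shares were 18.5 and 16.4% in melanophore-enriched and 8.61 and 5.49% in xanthophore-enriched libraries. With so few members tested, the list cannot be set apart from these shares. The HSP90 of the endoplasmic reticulum, hsp90b1 (GRP94), rose in melanophore-enriched libraries, with a median of 2730.5 (1235 to 5822) against 1786.5 (1139 to 3243) in unenriched skin and 9 of 12 libraries above their hybrid's skin mean. The difference was 0.74 ± 0.21 (adjusted p = 0.00496, limma), or 1.67-fold, and it missed the threshold without weights and without replicate 4 or 5 (highest adjusted p 0.294). The values of 0.26 and 0.55 in iridophore- and xanthophore-enriched libraries did not pass. The gene dnajc1, a membrane-bound DnaJ protein of the endoplasmic reticulum, rose in xanthophore-enriched libraries, with a median of 1144.5 (367 to 3506) against 630 (431 to 845) and 10 of 12 libraries above the skin mean. Its difference was 0.62 ± 0.20 (adjusted p = 0.0338), or 1.54-fold, and it was lost without any 1 replicate number (highest adjusted p 0.46). The HSP70 of the endoplasmic reticulum, hspa5 (BiP), had medians of 7629.5 in skin and 6424.5, 6524.5 and 8304.5 in the sorted kinds and did not pass (differences -0.34, -0.27 and 0.09). With the replicate block it passed in iridophore-enriched libraries, at -0.39 against skin (adjusted p = 0.014) and at -0.46 against xanthophore-enriched libraries (adjusted p = 0.0328).

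Among 11 mitochondrial members, 2 of 6 tested rose in iridophore-enriched libraries and 0 of 4 changed in either other sorted kind. Over all genes 24.1% rose in iridophore-enriched libraries, and with so few members tested the list cannot be set apart from that share. The HSP10 gene hspe1 had a median of 576 (234 to 2282) in iridophore-enriched libraries against 444.5 (99 to 849) in skin, and differed by 0.74 ± 0.25 (adjusted p = 0.0138, limma), with the same direction in 3 of 4 hybrids. Its values in melanophore- and xanthophore-enriched libraries, 0.39 and 0.81, did not pass, although the second did with the replicate block (adjusted p = 0.0344). The partner gene hspd1, which encodes HSP60, had medians of 414.5, 408, 361 and 601 and differences of -0.04, -0.38 and 0.48 that did not pass. The other mitochondrial gene that rose was dnajc19, which in yeast and human encodes a DnaJ subunit of the motor that pulls proteins into the matrix. Its median was 197 (168 to 486) in iridophore-enriched libraries against 137 (72 to 232) in skin, 11 of 12 libraries lay above their hybrid's skin mean, and the difference was 0.77 ± 0.25 (adjusted p = 0.0081). Neither call was stable when 1 replicate number was left out: hspe1 missed the threshold without replicate 3 or 4 (highest adjusted p 0.12) and dnajc19 without replicate 4 or 5 (highest 0.13). The mitochondrial HSP70 gene hspa9 differed by -0.35, -0.36 and -0.34 and did not pass.

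The other DnaJ genes gave 2 more calls against skin, both in iridophore-enriched libraries. The gene dnajc8, which encodes a protein found with the splicing machinery in human cells, had a median of 382 (146 to 968) against 272.5 (133 to 377) in skin, with 11 of 12 libraries above the skin mean. It differed from skin by 0.58 ± 0.17 (adjusted p = 0.00441, limma) and from xanthophore-enriched libraries by 0.72 ± 0.25 (adjusted p = 0.020). The gene dnajc12, which in human supports the folding of aromatic amino acid hydroxylases, had a median of 229 (48 to 558) against 119 (59 to 246), and differed by 0.57 ± 0.24 (adjusted p = 0.0472). With the replicate number as a block this value was unchanged and missed the threshold (adjusted p = 0.0594), as it did without any 1 replicate number (highest 0.188). The dnajc8 calls were lost without replicate 3 against skin (adjusted p = 0.0792) and without replicate 4 or 5 against xanthophore-enriched libraries (highest 0.172). The stress-responsive HSP40 gene dnajb1b, a partner of inducible HSP70, did not pass, at -0.20, -0.32 and -0.78. The clathrin-uncoating gene dnajc6, singled out after its values were seen, was too low to test. It was above 0 in 11 of 12 melanophore-enriched libraries, with a median of 30 and a highest value of 196, and had medians of 0.5 in skin, 0.5 in iridophore-enriched and 1 in xanthophore-enriched libraries.

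Between sorted kinds few members differed. Of 22 tested, 1 was higher and 1 lower in iridophore- than in melanophore-enriched libraries (background 18.8% and 18.5%), and 2 were higher and 2 lower than in xanthophore-enriched libraries (background 17.2% in each direction). These are the hsp90aa1.2, hspb1, dnajc8 and hsp90ab1 values given above. Of these, hspb1 in both comparisons and dnajc8 against xanthophore-enriched libraries passed the filter only through the kind where they were higher. With the replicate block hsp90b1 was also lower in iridophore- than in melanophore-enriched libraries (-0.45, adjusted p = 0.0253). Between melanophore- and xanthophore-enriched libraries 0 of 21 passed the limma test in either direction (background 1.89% and 1.36%), and at an unadjusted p under 0.05 only hspd1 did (-0.86, 95% interval -1.63 to -0.08). Pigment cell markers also separated these kinds only in part, so the lack of calls does not show that the cell types are alike.

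Partners of these chaperones that are not members were described from lists of the same pathway. Their counts stand beside a background of 24.1% of all genes higher and 26.6% lower in iridophore-enriched libraries, and the shares of co-chaperones and of chaperonin and prefoldin subunits that rose are near it. Of 23 cytosolic co-chaperones, 4 rose and 1 fell of 16 tested in iridophore-enriched libraries, and 0 of 11 and 0 of 10 changed in melanophore- and xanthophore-enriched libraries. Those that rose were the HSP90 partners fkbp4 (0.73), cdc37 (0.66), ptges3b (0.65) and chordc1b (0.62), and bag6 fell by 0.93. Of 14 subunits of the CCT chaperonin and prefoldin, which fold actin and tubulin, 4 of 14 rose in iridophore-enriched libraries, pfdn4 (0.82), pfdn5 (0.71), pfdn1 (0.56) and cct6a (0.49), with 0 falling. In melanophore-enriched libraries 0 of 8 changed and in xanthophore-enriched libraries 1 of 10 rose. Of 22 genes of folding and the unfolded protein response in the endoplasmic reticulum, 3 rose and 3 fell of 17 in iridophore-enriched libraries, among them the lectin chaperones calr (1.12) and canx (-0.56), and 0 of 14 and 0 of 15 changed in the other kinds. Among the heat shock factor genes and their binding proteins, hsbp1b rose by 0.97 ± 0.17 in iridophore-enriched libraries (adjusted p = 3.49e-06, limma). Among 18 members known as targets of heat shock factor 1, 12 were tested. In iridophore-enriched libraries 2 rose and 6 fell, the 4 hsp70 copies among them. In melanophore-enriched libraries 1 rose and 4 fell (background 18.5% and 16.4%), and in xanthophore-enriched 0 and 4 (8.61% and 5.49%). All that fell in these other kinds were the hsp70 copies, so the list adds no separate result there. Its median log2 differences were -0.29, -0.21 and -0.06, against -0.07, -0.04 and -0.05 over all genes.

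The hybrids also allow the 2 alleles of each gene to be compared within the same cells. Over 16 groups, 514 pairs of member and group could be tested. The D. rerio allele was higher in 94 (18.3%, against a background of 10.6% over all genes) and the paternal allele in 29 (5.64%, against 8.03%). The median log2 ratio of paternal over D. rerio was -0.19 over the members and -0.03 over all genes. The hsp70 copies made up 48 of the 94. Without them the D. rerio allele was higher in 46 of 451 pairs (10.2%) and the paternal allele in 26 (5.76%). Of the 60 members tested, 15 were called only toward D. rerio, 12 only toward the father, 3 in both directions in different groups, and 30 in neither. Per hybrid, the D. rerio and paternal alleles were higher in 21 and 6 of 109 pairs in the aesculapii hybrid (background 7.28% and 5.36%), and in 28 and 14 of 135 in the albolineatus hybrid (13.2% and 10.8%). They were higher in 24 and 2 of 141 in the kyathit hybrid (9.1% and 7.65%) and in 21 and 7 of 129 in the nigrofasciatus hybrid (12.3% and 7.67%). Pairs of one gene share a sequence and one library can share its depth, so pairs are not independent. A ratio was taken only from libraries with at least 3 molecules of the gene, so 113 of the 123 calls rest on 3 libraries and 10 on 2.

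Transcripts of hsp70l, hsp70.2 and hsp70.3 came mostly from the D. rerio allele in every hybrid and kind of library. In the unenriched skin of the aesculapii hybrid hsp70l had D. rerio values of 8767, 17301 and 9530 and paternal values of 2140, 4084 and 2722. In the albolineatus hybrid they were 5843, 6436 and 7825 against 679, 672 and 759, in the kyathit hybrid 6212, 5231 and 4262 against 1282, 1285 and 515, and in the nigrofasciatus hybrid 6856, 5180 and 2636 against 2183, 845 and 440. The alleles did not overlap in any hybrid. The centred log2 ratios were -1.98 ± 0.13 (adjusted p = 2.67e-09, limma), -3.20 ± 0.12 (adjusted p = 1.33e-13), -2.31 ± 0.28 (adjusted p = 2.33e-05) and -2.46 ± 0.18 (adjusted p = 4.16e-08) in this order. Over all 16 groups the ratio of hsp70l lay between -3.73 and -1.05, that of hsp70.2 between -3.97 and -1.52 and that of hsp70.3 between -4.69 and -1.38.

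In 47 of these 48 pairs the call was made. The exception was hsp70.3 in the xanthophore-enriched libraries of the aesculapii hybrid (-1.38 ± 0.43, adjusted p = 0.0875, limma). Its D. rerio values there were 2970, 1453 and 6634 and its paternal values 674, 1202 and 2698. The strongest ratio was that of hsp70.3 in the unenriched skin of the albolineatus hybrid, with 3046, 3464 and 3184 from D. rerio and 122, 115 and 125 from the father (-4.69 ± 0.12, adjusted p = 8.78e-16). The median paternal share over the 12 libraries of a hybrid was 23.4, 10.9, 19.9 and 14.2% for hsp70l in the aesculapii, albolineatus, kyathit and nigrofasciatus hybrids, and the D. rerio value was the higher one in 12 of 12 libraries of each. It was 17.1, 14.5, 14.5 and 7.83% for hsp70.2 and 22.4, 3.78, 13.5 and 13.7% for hsp70.3, again with D. rerio higher in 12 of 12. Leaving out 1 replicate number ended 4 of these calls, those of hsp70.3 in aesculapii and nigrofasciatus iridophore-enriched libraries (without 4 or 5) and in kyathit melanophore-enriched libraries (without 3), and that of hsp70l in aesculapii xanthophore-enriched libraries (without 4), with adjusted p up to 0.09.

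**Figure D4:**
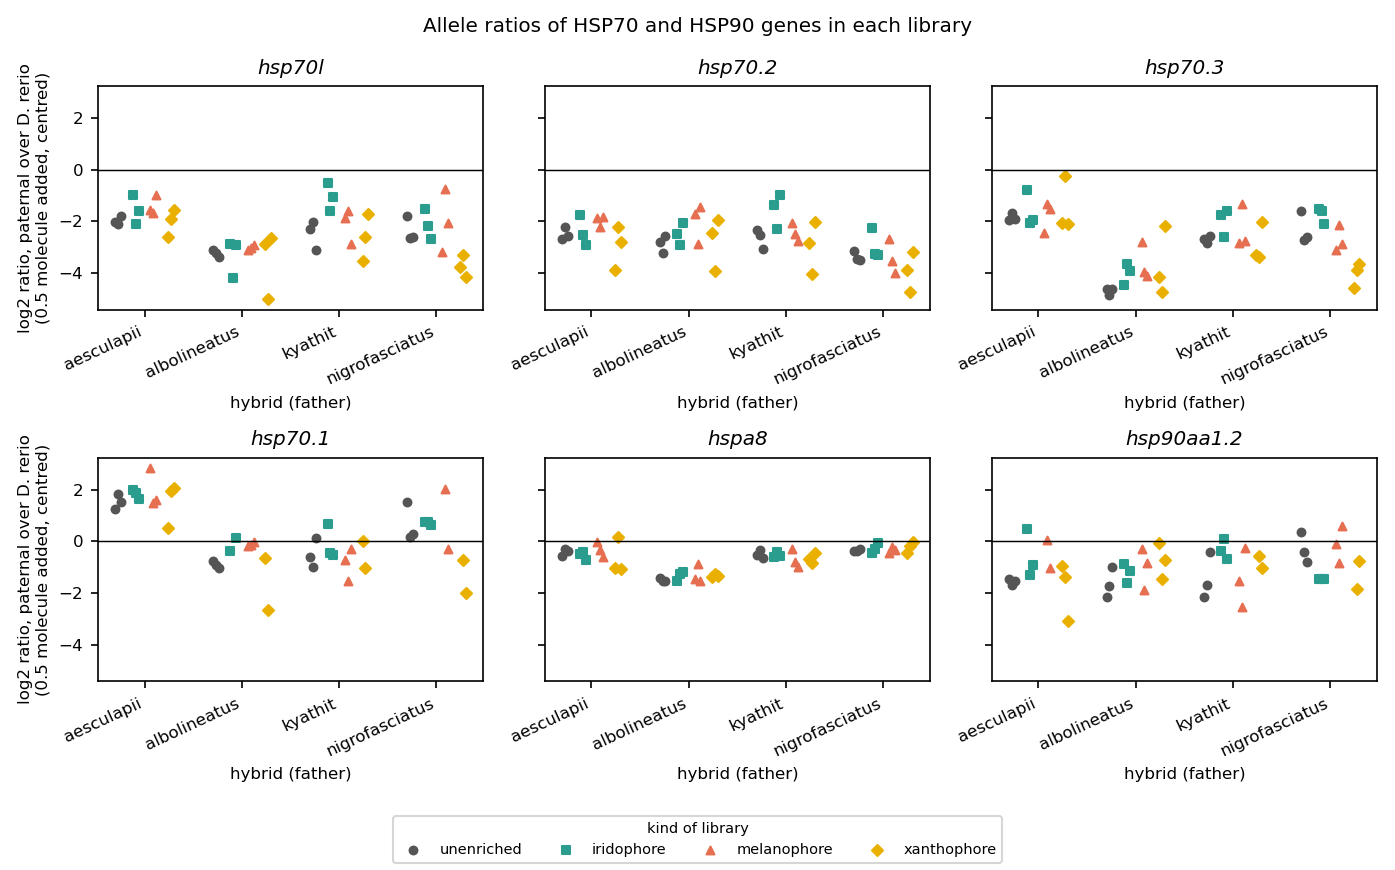
Centred log2 ratio of the paternal over the D. rerio allele (0.5 molecules added to each) of hsp70l, hsp70.2, hsp70.3, hsp70.1, hspa8 and hsp90aa1.2 in each library, by hybrid; marker shape and colour give the kind of library and the line at 0 marks the median gene of the library. Points of hsp70l, hsp70.2 and hsp70.3 lie below 0, whereas those of hsp70.1 lie above 0 in the aesculapii hybrid.

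The fourth copy, hsp70.1, did not share this direction. In the unenriched skin of the aesculapii hybrid it had D. rerio values of 827, 1326 and 923 and paternal values of 1965, 4760 and 2627, so that every paternal value exceeded every D. rerio value. The ratio was 1.47 ± 0.17 (adjusted p = 5.14e-06, limma), with 1.82 ± 0.34 (adjusted p = 0.000603) in iridophore- and 1.84 ± 0.35 (adjusted p = 0.00144) in melanophore-enriched libraries. In xanthophore-enriched libraries it was 1.43 ± 0.42 and did not pass (adjusted p = 0.0597). In the albolineatus hybrid the D. rerio allele was higher in unenriched skin, with 617, 940 and 668 against 366, 484 and 325 (-0.89 ± 0.14, adjusted p = 0.000119). That call was lost without weights (-0.90, limma adjusted p = 0.139). The median paternal share over 12 libraries was 77.6% in the aesculapii hybrid (58.3 to 92.1%), 45.7% in the albolineatus, 41.6% in the kyathit and 64.0% in the nigrofasciatus hybrid. With the 4 copies summed, the median paternal share was 30.5, 12.9, 18.8 and 16% and D. rerio was the higher one in 12 of 12 libraries of each hybrid. How reads were assigned among the near-identical copies and between alleles cannot be seen in these values, and a read of one copy counted for another would move these shares.

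Among the constitutive members, hspa8 had a negative ratio in all 16 groups (-1.48 to -0.18) and was called toward D. rerio in 11. In the unenriched skin of the albolineatus hybrid its D. rerio values were 10091, 9931 and 11138 and its paternal values 3792, 3364 and 3815 (adjusted p = 7.01e-12, limma), and the 4 kinds of library of that hybrid lay between -1.48 and -1.23. The HSP70-like gene hspa12a was called toward D. rerio in 5 of 5 groups tested, at -3.67 to -2.53. Its D. rerio values in albolineatus skin were 229, 195 and 107, and its paternal values 16, 10 and 4 (adjusted p = 8.07e-07). The HSP110 gene hspa4a was called only in the nigrofasciatus hybrid, where iridophore-enriched libraries gave 648, 247 and 595 from D. rerio and 179, 70 and 90 from the father (-2.12, adjusted p = 0.000398). Its ratios in the unenriched skin and xanthophore-enriched libraries of that hybrid were -1.70 and -2.50, which also passed, the first from 2 libraries. The gene hspa14 was called toward D. rerio in albolineatus skin (-1.02, adjusted p = 0.00131) and, from 2 libraries, in aesculapii iridophore-enriched libraries (-2.56, adjusted p = 0.0462), a call lost with the replicate number as a block (adjusted p = 0.0818). The gene hspa5 was called toward D. rerio in aesculapii skin (-0.69, adjusted p = 0.0241). That call did not hold without replicate 3 or 5 (highest adjusted p 0.746), and 6 of the 11 calls of hspa8, none of them in the albolineatus hybrid, were lost without at least 1 replicate number (highest 0.377).

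The 3 HSP90 genes with enough molecules differed in allele direction. The ratio of hsp90aa1.2 was negative in all 16 groups and passed in 5. In kyathit skin its D. rerio values were 392, 796 and 528 against paternal values of 85, 239 and 438 (-1.72), and in albolineatus skin 610, 519 and 508 against 134, 151 and 253 (-1.67). The alleles overlapped in the first of these, which did not pass without replicate 3 or 4 (highest adjusted p 0.51), and not in the second. By contrast, every call of hsp90ab1 was toward the father, in albolineatus skin with 3403, 3248 and 3804 from D. rerio and 5467, 5522 and 6215 from the father (0.72, adjusted p = 7.72e-07, limma), and in aesculapii iridophore-enriched libraries (0.70, adjusted p = 0.0208). It was also called in albolineatus melanophore- and xanthophore-enriched libraries (0.63 and 0.67), and both of these were lost with the replicate block (adjusted p = 0.0508 and 0.0579). The melanophore call was also lost without replicate 3 or 4 (highest adjusted p 0.4085). The xanthophore call was lost without any 1 replicate number (highest 0.3951). The gene hsp90b1 was called toward the father in albolineatus skin (623, 710 and 680 against paternal 1447, 1056 and 1397, ratio 0.95, adjusted p = 0.000124) and toward D. rerio in kyathit iridophore- and melanophore-enriched libraries (-0.68, adjusted p = 0.00165, and -0.82, adjusted p = 0.0131). Without 1 replicate number the calls of hsp90b1 in kyathit melanophore-enriched libraries (3 or 5) and of hsp90ab1 in aesculapii iridophore-enriched libraries (4 or 5) were lost, with adjusted p up to 0.101 and 0.143.

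All calls among the small heat shock proteins were toward the father, in hspb6 (3 of 4 groups tested), hspb1 (3 of 13) and hspb15 (1 of 1). Over all genes 8.03% of pairs were called that way. The filter counted both alleles together. In every tested group of hspb6 and hspb15 the D. rerio allele alone lay below 5 molecules in each library. These groups could be tested only with the paternal allele, so their counts do not show a direction of the class. The gene hspb8 was tested in 1 group and not called, with a ratio of -0.97. Groups of the same gene are not independent. In the iridophore-enriched libraries of the aesculapii hybrid, hspb6 had D. rerio values of 18, 32 and 115 and paternal values of 534, 736 and 439 (2.88 ± 0.55, adjusted p = 0.00149, limma). In those of the albolineatus hybrid it had 31, 3 and 4 against 403, 266 and 322 (3.56 ± 0.43, adjusted p = 3.2e-05), and in albolineatus skin 0, 11 and 7 against 38, 242 and 125 (3.67 ± 0.33, adjusted p = 7.72e-07). These are the 2 hybrids in which its total level was highest. The gene hspb15, high only in nigrofasciatus iridophore-enriched libraries among the 16 groups, came there from the father, with 18, 47 and 14 from D. rerio and 615, 1429 and 190 from the father (3.58 ± 0.45, adjusted p = 0.000672). Every D. rerio value of hspb6 in albolineatus iridophore-enriched libraries, and some of hspb15, lay below 1 molecule. The size of these ratios thus depends on the 0.5 molecules added. Under the alternatives they ran from 2.23 to 3.76 for hspb6 and from 2.61 to 3.90 for hspb15, and all passed. The gene hspb1 was called toward the father in kyathit melanophore-enriched libraries, with 224, 392 and 136 against 539, 1067 and 1116 (1.75 ± 0.47, adjusted p = 0.0227), and in kyathit xanthophore-enriched libraries, with 39, 95 and 130 against 262, 2016 and 349 (2.49 ± 0.54, adjusted p = 0.0075). In nigrofasciatus skin it had 19, 99 and 234 against 224, 369 and 613 (1.67 ± 0.50, adjusted p = 0.027). The kyathit melanophore call of hspb1 was lost without replicate 3 or 5 (highest adjusted p 0.213).

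Among the DnaJ genes, 17 of 246 pairs were called toward D. rerio (6.91%) and 13 toward the father (5.28%), neither above the background of 10.6% and 8.03% over all genes. The most one-sided was dnajc8, whose ratio was negative in 13 of 13 groups tested. In nigrofasciatus skin its D. rerio values were 189, 129 and 265 and its paternal values 7, 4 and 5 (-4.26 ± 0.39, adjusted p = 1.98e-06, limma, from 2 libraries), and in albolineatus skin 233, 283 and 252 against 22, 37 and 23 (-3.05, adjusted p = 2.22e-09). The iridophore- and melanophore-enriched libraries of both hybrids were also called, at -3.46 and -2.84 in the nigrofasciatus and -2.38 and -2.68 in the albolineatus hybrid. In the nigrofasciatus hybrid every paternal value behind these calls lay below 1 molecule, so the size of the ratios depends on the 0.5 molecules added. Under the alternatives they ran from -4.26 to -2.96 in skin. They ran from -3.58 to -2.08 in iridophore- and from -2.85 to -1.64 in melanophore-enriched libraries, and all passed. In the other two hybrids the alleles were closer, with 178, 115 and 234 against 148, 148 and 143 in aesculapii skin and 199, 160 and 136 against 102, 119 and 46 in kyathit skin, and no group of these was called. The median paternal share over 12 libraries was 41.3, 11, 43.2 and 3.30% in the aesculapii, albolineatus, kyathit and nigrofasciatus hybrids.

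The gene dnajb1b was called toward the father in the albolineatus hybrid and in no group of the other hybrids without the block. Its iridophore-enriched libraries gave 746, 550 and 834 from D. rerio and 3209, 2018 and 2973 from the father (1.88 ± 0.23, adjusted p = 9.3e-06, limma). The ratio was 1.59 ± 0.29 (adjusted p = 0.00106) in melanophore-enriched libraries, 1.46 ± 0.12 (adjusted p = 2.23e-08) in skin, and 1.16 in xanthophore-enriched libraries, where it did not pass (adjusted p = 0.0687). In the aesculapii hybrid dnaja2a, a cytosolic DnaJ protein that works with hspa8, was called toward D. rerio in 3 of 4 kinds, with 486, 672 and 769 against 141, 107 and 199 in skin (-1.99, adjusted p = 2.01e-05). Its ratios were -1.85 and -1.87 in iridophore- and melanophore-enriched libraries, and -1.75 ± 1 in xanthophore-enriched libraries, which did not pass. Its total level had medians of 817 in skin and 773, 808 and 806 in the sorted kinds and did not pass against skin in any of them.

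**Figure D5:**
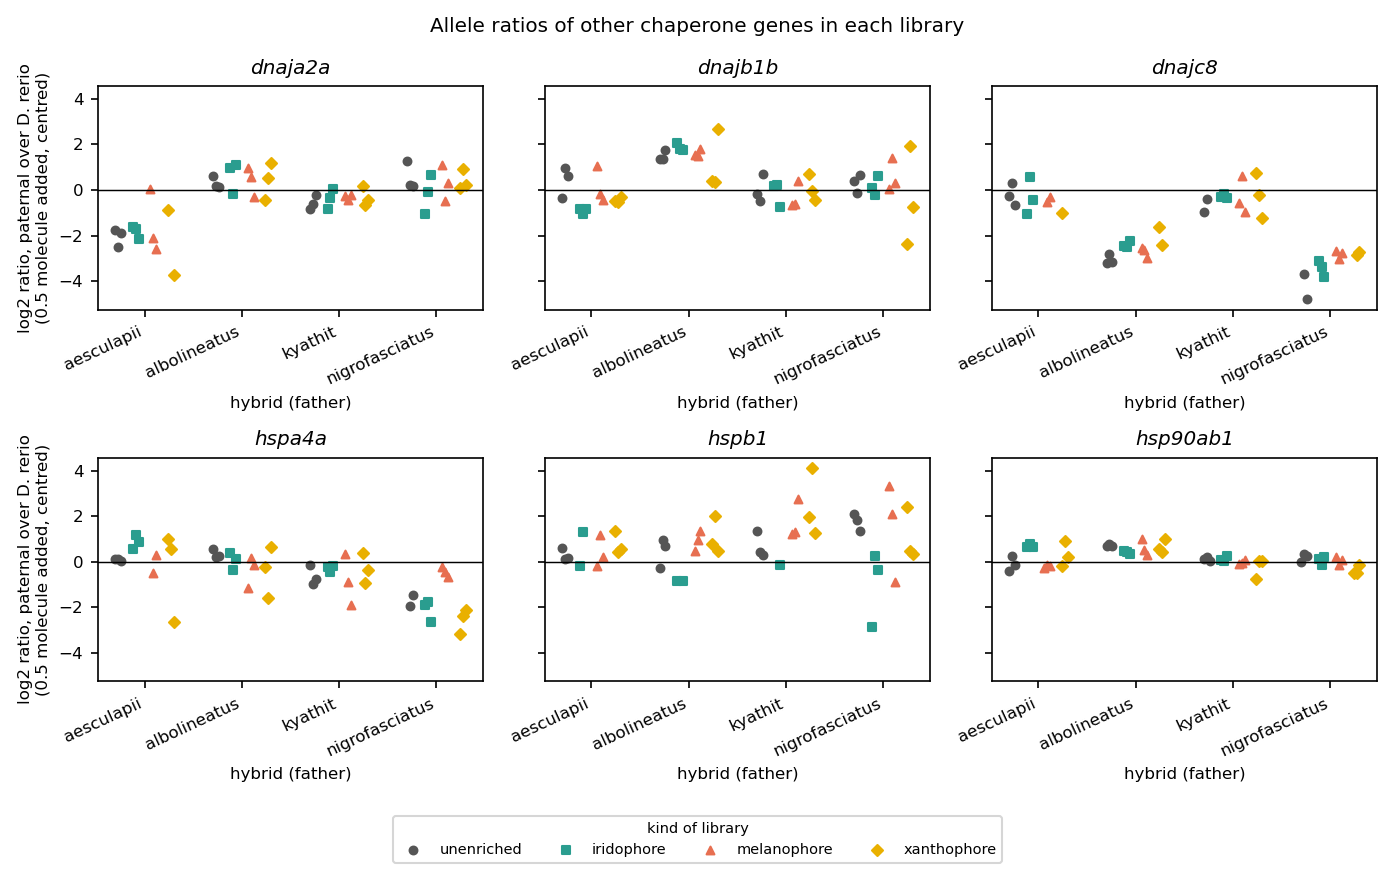
Centred log2 ratio of the paternal over the D. rerio allele (0.5 molecules added to each) of dnaja2a, dnajb1b, dnajc8, hspa4a, hspb1 and hsp90ab1 in each library with at least 3 molecules, by hybrid; marker shape and colour give the kind of library and the line at 0 marks the median gene of the library. In skin dnaja2a averaged -1.99 in the aesculapii hybrid, dnajb1b 1.46 in the albolineatus hybrid and dnajc8 -4.26 in the nigrofasciatus hybrid. The paternal values of dnajc8 in that skin lay below 1 molecule.

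Further paternal calls in the albolineatus hybrid were those of the mitochondrial DnaJ gene dnaja3a in skin (26, 70 and 40 against 197, 223 and 228, ratio 2.25, adjusted p = 3.33e-05, limma), of dnajb14, a membrane-bound DnaJ protein of the endoplasmic reticulum, in iridophore-enriched libraries (29, 7 and 34 against 265, 162 and 237, ratio 2.51, adjusted p = 0.00113), and of dnajc12 in skin (31, 41 and 30 against 109, 143 and 103, ratio 1.69, adjusted p = 0.00432). In the kyathit hybrid dnajc12 went the other way, with 77, 101 and 107 from D. rerio and 20, 52 and 12 from the father in iridophore-enriched libraries (-1.73, adjusted p = 0.0165). Kyathit skin also gave a D. rerio call of dnajc10, a disulfide reductase of the endoplasmic reticulum (-1.95, from 2 libraries). In the nigrofasciatus hybrid the paternal calls were hspbp1, a nucleotide exchange factor of HSP70 (2.51, from 2 libraries), and dnaja1 (1.90) in iridophore-enriched libraries, and dnajb6a (2.01, from 2 libraries), dnajb6b (1.60) and dnajb14 (1.81, from 2 libraries) in skin. With the replicate block hspbp1 and dnajb14 no longer passed (adjusted p = 0.0926 and 0.143). Calls that did not hold without 1 replicate number were those of dnajc12 in kyathit iridophore-enriched libraries (5; adjusted p = 0.181), dnaja1 (3; 0.0835), dnajb6b (3; 0.0508) and dnaja2a in aesculapii iridophore-enriched libraries (4 or 5; highest 0.0784).

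The replicate block made 9 further allele calls that the fit without it did not, with limma adjusted p from 0.000646 to 0.0477. Toward the father these were dnaja1 in kyathit iridophore-enriched libraries, hspb6 in aesculapii skin and hspa13 in nigrofasciatus skin. Toward D. rerio they were hspa5 and hspa9 in nigrofasciatus iridophore-enriched libraries, hspa9 in nigrofasciatus skin, dnajb1b in aesculapii iridophore-enriched libraries, dnajc1 in albolineatus xanthophore-enriched libraries and dnajc12 in kyathit skin.

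Allele ratios of some members differed among hybrids, and those of none differed detectably among kinds of library. Over all genes, too, larger shares passed among hybrids than among kinds. Whether members differ from these shares was not tested. Within a hybrid, 0 of 15, 0 of 20, 0 of 22 and 0 of 19 members passed the limma F test among the 4 kinds in the aesculapii, albolineatus, kyathit and nigrofasciatus hybrids (background 0.995, 2.18, 0.832 and 0.638%). At an unadjusted p under 0.05, 6, 1, 3 and 4 did. In simulated data this test recovered 11.2 to 27.2% of 2-fold and 67.6 to 88.3% of 4-fold changes, so smaller differences among kinds could be missed. The lowest adjusted p in the albolineatus hybrid was that of hsp90b1, 0.0584, which became 0.0219 with the replicate block. Among hybrids, 16 of 43 members differed in unenriched skin (background 29.1%), 8 of 24 in iridophore-enriched libraries (26%), 2 of 19 in melanophore-enriched (15.7%) and 0 of 15 in xanthophore-enriched (8.6%), where 3 had an unadjusted p under 0.05. With the replicate block hsp70.3 passed in xanthophore-enriched libraries (adjusted p = 0.0459) and hspa14 no longer passed in skin (adjusted p = 0.0759). The lowest adjusted p values in skin were those of hsp70.3 (1.39e-08), hsp70.1 (3.3e-06), hspa8 (1.19e-05), dnaja2a (1.33e-05), dnajc8 (1.62e-05) and hsp70l (0.000288).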

How the data were processed

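RNA was polyA-selected, amplified with a SMART-seq2 kit and made into paired-end Nextera libraries, per the labels. The deposited values, entered here under the unit score, are normalised allele counts rounded to whole numbers, 1 column for each allele and library, 96 in all. The submitters' processing notes name GRCz11, featureCounts and DESeq2 1.44.0; which aligner was used, and how reads were assigned to alleles, is not given in the sources used here, so the effect of these steps on allele ratios could not be measured. Size factors recomputed from the deposited columns were 0.997 to 1.0029, so no further scaling was used. The alleles of a library were thus on the same scale, and a difference between them over the whole library may already have been removed. Because normalised values are not counts, limma 3.58.1 (R 4.3.3) was used, and the depth of a library was estimated from the scatter of allele shares between replicates, giving 6.23 to 275 normalised units per independently sampled molecule.

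Total levels were fitted as log2(sum + 20) with 1 mean for each of 16 groups over 48 libraries, precision weights per library (lowess span 0.3) and moderated variances. A fold change on this scale understates the change of low genes. A contrast is the mean of 4 within-hybrid differences. Genes with a mean of at least 5 molecules over both kinds compared, at the depth of the sorted kinds, were tested. A gene low in 1 kind could thus enter a test through the other. Allele ratios, with 0.5 molecules added to each allele, were taken where a library held at least 3 molecules, centred on the median gene of the library (shift -0.0557 to 0.861) and fitted over the 12 libraries of a hybrid. A ratio of 0 is thus that of the median gene of the library, not strictly equal alleles. Where an allele held less than 1 molecule, the size of its ratio depends on the 0.5 molecules added. A gene was tested where 2 of 3 libraries held 5 molecules of both alleles together, so a group could enter through 1 allele alone. F tests needed 10 molecules of each allele and 5% from the rarer one. Mitochondrially encoded genes were left out of the ratios. All tests are two-sided, with Benjamini-Hochberg adjustment over all genes of a comparison and a threshold of 0.05. The scripts were tested on simulated data.

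The labels call the replicate number a batch, so same-numbered libraries may be paired, but the fits behind the reported values hold no such term. Deviations of same-numbered libraries of one hybrid had a median correlation of 0.0625 over 72 pairs, against -0.0306 over 144 pairs of other numbers. The fit with the number as a block is an alternative, quoted where it changes a call.

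Members and gene lists were chosen with earlier results of these data known. Named genes are members past the threshold (up to 12 per direction and contrast, 10 per hybrid and 6 per F test) and the members of the main heat shock classes; other genes are up to 4 of each list past the threshold. Alternatives changed the pseudocount, filter, weights, scaling, centring, block and libraries. No sequences or coordinates are given.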

Additional observations from a re-analysis of the deposited data

Results flagged for a closer look

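A difference among the 4 hybrids in the ratio of paternal over D. rerio allele, tested with the limma F test within 1 kind of library, singled out 26 results, which fall on 16 members. They were 16 of 43 members tested in unenriched skin, where 29.1% of all genes passed, and 8 of 24 in iridophore-enriched libraries (26%). In melanophore-enriched libraries they were 2 of 19 (15.7%) and in xanthophore-enriched 0 of 15 (8.6%). Whether members exceed these shares was not tested. The 16 members in unenriched skin are given first. They were hsp70.3 (adjusted p = 1.39e-08), hsp70.1 (3.3e-06), hspa8 (1.19e-05), dnaja2a (1.33e-05), dnajc8 (1.62e-05), hsp70l (0.000288), dnajb1b (0.001), hsp90ab1 (0.0026), hspa4a (0.00304), dnajc12 (0.00432), hsp90b1 (0.00488), dnajb14 (0.0094), hsp70.2 (0.0169), hsp90aa1.2 (0.0238), hspa14 (0.0356) and dnajc10 (0.0473). In iridophore-enriched libraries the 8 members were dnajb1b (0.000159), dnajc8 (0.000543), hspa4a (0.000856), hsp70.3 (0.00305), hspa8 (0.00513), hsp70l (0.00603), hsp70.1 (0.0138) and dnaja2a (0.0235). In melanophore-enriched libraries they were hsp70.1 (0.0173) and dnajb1b (0.0256). Against a centred ratio of 0 and without the replicate block, dnajb1b passed only in groups of the albolineatus hybrid, hspa4a only in the nigrofasciatus hybrid and dnaja2a only in the aesculapii hybrid. No group had more than 3 libraries, so single libraries were not tested for standing apart.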

How the results depend on the processing

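The number of members called moved most with the replicates and with the filter on low values. Leaving out 1 replicate number gave 4 to 10 members against unenriched skin in iridophore-enriched libraries (12 with all), 1 to 5 in melanophore-enriched (6) and 0 to 3 in xanthophore-enriched (5). It gave 1 to 3 between iridophore- and xanthophore-enriched libraries (4), 16 to 30 allele calls in the aesculapii hybrid (27), 15 to 25 in the kyathit (26) and 13 to 26 in the nigrofasciatus hybrid (28), 0 to 2 among kinds of library (0) and 11 to 16 among hybrids (26). Calls against skin over all genes became fewer too. In iridophore-enriched libraries 1510 genes rose and 1663 fell with all replicates, and 1021 and 1121 without replicate 4. The same counts were 650 and 574 against 312 and 245 in melanophore-enriched libraries. They were 290 and 185 against 45 and 14 in xanthophore-enriched libraries. With no filter on low values and all 81 members tested, 20 and 10 were called in iridophore- and xanthophore-enriched libraries against skin. Of all 19629 genes, 2102 rose and 5009 fell in the first of these comparisons and 376 and 2731 in the second. The same setting called 4 and 9 between iridophore-enriched and the melanophore- and xanthophore-enriched libraries and 2 for a difference among hybrids in enrichment. With at least 20 molecules, 1 and 2 were called between iridophore-enriched and the other 2 sorted kinds, and with at least 15 molecules 13 allele calls in the nigrofasciatus hybrid and 17 among hybrids, fewer genes being tested. With 2 molecules added 1 member was called among kinds, and likewise 1 with the replicate block. The cause of the other shifts was not tested.

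Of single members' calls under the alternatives, 282 of total level and 1042 of alleles stayed past the threshold, 54 and 94 missed it, and none changed direction. Beside those given with their results, the replicate block lost dnajb11 (adjusted p = 0.0675), dnajc3a (0.0602) and dnajc8 (0.0559) in albolineatus iridophore-enriched, unenriched and xanthophore-enriched libraries, and hspa12a in nigrofasciatus skin (0.413). In all the block ended 11 calls and made 16, the others being given with their results, and it changed no other call. Calls that missed the threshold were 29 without weights and 34, 40 and 25 without replicates 3, 4 and 5. The allele calls lost without weights included hsp90b1, dnajc12 and hspa14 in albolineatus skin (limma adjusted p 0.0674, 0.0956 and 0.1746). They also included hspb1 in nigrofasciatus skin (0.1415) and dnaja2a in aesculapii skin and melanophore-enriched libraries (0.0554 and 0.1087). Shallow xanthophore- and melanophore-enriched libraries limit what can be tested, and a member not called there is not shown to be unchanged.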

Other observations

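Allele calls in the lists around the heat shock and DnaJ chaperones stand beside a background, over all genes and the 16 groups, of 8.03% toward the father and 10.6% toward D. rerio. Immediate early genes were called toward the father in 87 (25.6%) and toward D. rerio in 55 (16.2%) of 340 pairs of gene and group. Genes of folding and the unfolded protein response in the endoplasmic reticulum gave 33 (12.5%) and 22 (8.33%) of 264. Cytosolic co-chaperones, at 17 (8.59%) and 20 (10.1%) of 198, lay near the background. Subunits of the CCT chaperonin and prefoldin gave 9 (4.79%) and 8 (4.26%) of 188, no more than the background, and heat shock factors and their binding proteins 3 and 0 of 34.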
